A study of Homo sapiens with 4 samples.

Results

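OTX-015 was compared with its solvent in HCC1937 cells that had received wild-type BRCA1. HCC1937 is an established human breast cancer line without functional BRCA1, a protein of homologous recombination repair. The wtBRCA1 cells, labelled wild type for BRCA1, were sampled as 1 library under DMSO and 1 library under OTX-015. HCC1937 cells with a vector, labelled BRCA1 -/-, were sampled in the same way and serve here only as a point of reference. The labels give no dose, no exposure time, no promoter for the BRCA1 transgene and no statement on whether the wtBRCA1 line is a clone. Of the 60487 genes listed in each library, the 11492 at 5 FPKM or more in either wtBRCA1 library (19.0%), other than short structural RNAs, were compared on the scale log2(FPKM + 1). FPKM is a fragment number scaled by transcript length and by library size. With 1 library per group no difference has a replicate error or a test, and each value below describes a pair of libraries.

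OTX-015, also known as birabresib, is an inhibitor of the BET proteins, such as BRD2 and BRD3. These proteins bind acetylated lysines of histones through their bromodomains and help RNA polymerase II pass from the paused to the elongating state through the kinase P-TEFb. In epithelial cancer cells, BET inhibition is known for lower levels of transcripts with large acetylated enhancers, such as MYC in many lines, and for higher levels of HEXIM1 and of histone transcripts.

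The gene groups with the largest medians in either direction were the interferon-stimulated genes and the replication-dependent histones. The RefSeq promoters (GRCh38.p14) of the member of each with the largest difference among those holding a motif are printed, with CTGF, the gene with the highest difference of all named, and TXNRD1, which encodes a thioredoxin reductase. Each line gives the 250 bases before the start, 5′ to 3′ along the transcript. Capitals mark the matches to the motif searched, on either strand.

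IFI44L, chr1:78620198-78620447, plus strand, interferon-stimulated response element core (GAAA, any 2 bases, GAAA): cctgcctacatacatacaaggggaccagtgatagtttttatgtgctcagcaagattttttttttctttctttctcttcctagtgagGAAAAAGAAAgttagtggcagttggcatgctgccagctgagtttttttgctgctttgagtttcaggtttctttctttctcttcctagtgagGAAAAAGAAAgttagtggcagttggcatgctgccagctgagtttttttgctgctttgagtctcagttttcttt

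HIST1H2AL (H2AC16 in RefSeq), chr6:27865067-27865316, plus strand, octamer ATTTGCAT, here read as its reverse complement: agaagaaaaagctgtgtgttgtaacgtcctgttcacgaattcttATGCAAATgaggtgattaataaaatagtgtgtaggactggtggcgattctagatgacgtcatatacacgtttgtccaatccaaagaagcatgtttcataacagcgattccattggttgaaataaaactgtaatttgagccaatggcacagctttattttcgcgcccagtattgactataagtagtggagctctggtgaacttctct

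CTGF (CCN2 in RefSeq), chr6:131951373-131951622, minus strand, TEAD site GGAATG: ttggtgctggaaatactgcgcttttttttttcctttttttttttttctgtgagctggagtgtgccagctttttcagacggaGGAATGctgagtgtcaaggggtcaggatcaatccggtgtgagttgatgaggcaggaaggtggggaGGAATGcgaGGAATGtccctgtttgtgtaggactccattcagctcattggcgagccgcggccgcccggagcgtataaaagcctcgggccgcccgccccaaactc

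TXNRD1, chr12:104215529-104215778, plus strand, antioxidant response element core TGACNNNGC: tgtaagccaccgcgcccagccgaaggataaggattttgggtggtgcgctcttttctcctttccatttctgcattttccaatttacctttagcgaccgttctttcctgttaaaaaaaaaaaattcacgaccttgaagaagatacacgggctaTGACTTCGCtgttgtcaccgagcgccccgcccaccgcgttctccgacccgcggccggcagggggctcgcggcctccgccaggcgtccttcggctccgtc

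The IFI44L window held 2 matches, starting 164 and 73 bases before the start, each inside a copy of the same longer repeat. The HIST1H2AL window held 1 match, 206 bases before the start. In CTGF there were 3 matches, at 169, 104 and 95 bases, and in TXNRD1 there was 1, at 99 bases. The counts of promoters with each motif that follow use 300 bases, 250 before and 50 after the start, both strands, and a match is a description of letters and not a site.

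The FPKM values summed to 962378 under DMSO and 1477103 under OTX-015 in wtBRCA1 cells, and the sequencing depth is unknown. The 10 highest genes held 15.3% and 33.8% of these sums. The entry AC026803.1 at the FTL locus, singled out after its values were seen, held 2.55% and 14.8%. Of 10 epithelial markers, 9 stood at 5 FPKM or more, with KRT8 at 3185 and 4476 FPKM, while KRT19 was at 3.97 and 1.39. KRT8 shares its locus with KRT18 (108 and 125 FPKM), so the split of fragments between them is uncertain. Of 12 leukocyte markers, 2 reached 5 FPKM (CD68 and CD14) and 6 were listed at 0 in both libraries, and of 9 fibroblast markers 1 did (COL1A1) and 7 were at 0. None of 5 endothelial and 2 red cell markers reached 5 FPKM. The leukocyte list summed to 34.6 FPKM with DMSO and 50.2 with OTX-015, and that of the fibroblast list 9.83 and 8.49. BRCA1, which checks the labels, was at 171 and 2712 FPKM in wtBRCA1 cells and at 37.2 and 40.8 in vector cells, so the vector line also carries BRCA1 transcripts. Both wtBRCA1 libraries stood above both vector libraries, and the 2 wtBRCA1 libraries differed from each other by 3.98 log2 units in the transcript that defines the line. Whether that difference has a part in any other value was not tested.

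Across the 11492 genes the median difference, OTX-015 minus DMSO, was 0.08 log2 units, and 90% of genes lay between -1.57 and 1.63. The OTX-015 library was at least 2-fold higher for 1671 genes (14.5%) and at least 2-fold lower for 1474 (12.8%), on the FPKM + 1 scale, so that 53.1% of these genes were higher. When both libraries were scaled to the same summed FPKM, 650 were higher and 3339 lower (16.3% higher), because this scaling moved the median of all genes by -0.58. Median-of-ratios and quantile scaling moved it by -0.06 and -0.08, with 48.8% and 49.4% of these genes higher, and a filter of 1 FPKM gave 49.2%. Differences of at least 8-fold were found for 90 genes upward (0.783%) and 85 downward (0.74%), and 42.8% of genes were within 0.5 log2 units of 0. The shares of 14.5% and 12.8% are the background for each list count below. The lists were chosen with earlier results of these data known, so these shares give a scale and no test. Of the genes kept, 1135 reached 5 FPKM under DMSO only and 1079 under OTX-015 only. The filter fixed the direction of such genes, in the background and in each list. The background depended on the level. Of 4 equal groups of genes by mean level, the highest (median 124 FPKM) had 13.5% of genes 2-fold higher and 5.46% lower. In the lowest (median 5.75 FPKM) the shares were 19.1% and 20.3%. Genes at 5 to 6 FPKM in their higher library, just inside the filter, were 2-fold higher in 10.3% and lower in 17.3% of cases, against 12.6% and 15.2% of those at 4 to 5 FPKM, just outside it. Cufflinks assigns fragments among genes of 1 locus, so genes that shared a locus with another entry were counted separately: of the 2951 alone at their locus, 15.3% were 2-fold higher and 12.8% lower, and of the 8541 that shared one, 14.3% and 12.8%.

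**Figure D1:**
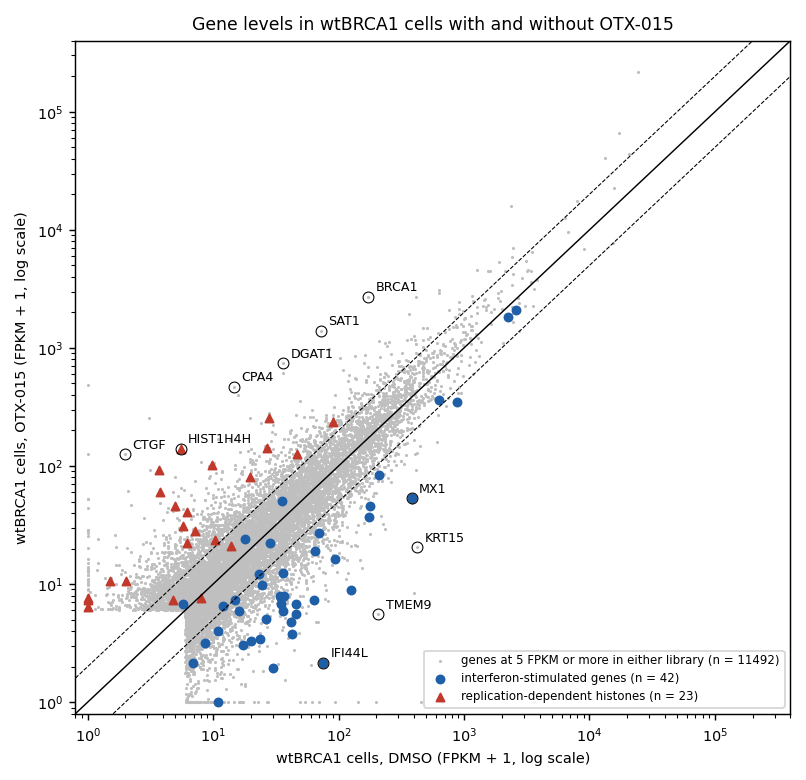
Level of each of 11492 genes (grey points) in wtBRCA1 cells under DMSO (x axis) and OTX-015 (y axis), both as FPKM + 1 on log scales, with 1 library per axis, the 42 interferon-stimulated genes as blue circles, the 23 replication-dependent histones as red triangles and named genes ringed. The solid line is equality and the dashed lines 2-fold, and 33 of the 42 interferon-stimulated genes lie beyond the lower dashed line and 20 of the 23 histones beyond the upper.

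Among protein-coding genes with a symbol that is no clone name, and above 0 in both libraries, the highest difference belonged to CTGF (ENSG00000118523, chromosome 6, 131948176 to 131951373), which encodes a secreted matricellular protein. Its value was 0.982 FPKM with DMSO against 125 with OTX-015, a difference of 6.0 log2 units. It overlaps the clone-named RP11-69I8.3, which went along with it (2.08 and 254 FPKM), so the fragments of both may have been divided between them. CPA4, a carboxypeptidase (ENSG00000128510, chromosome 7, 130293134 to 130324180), was at 13.8 and 468 FPKM, 4.99 log2 units higher. SERPINI1, which encodes neuroserpin, a serine protease inhibitor, was at 2.14 and 91.6 FPKM (4.88). SLC6A8, the creatine transporter, was at 1.21 and 46.1 FPKM (4.41). SAT1, which acetylates spermidine and spermine, was at 71.6 and 1400 FPKM (4.27), and has no other entry at its locus. DGAT1, which makes triglycerides, was at 35.3 and 743 FPKM (4.36) at a locus shared with HSF1 (797 and 993 FPKM). CLU, a secreted chaperone, was at 35.0 and 612 FPKM (4.09), and TFPI2, a Kunitz-type protease inhibitor of the matrix, at 3.99 and 79.8 FPKM (4.02).

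MMP1, the interstitial collagenase, was at 0.652 and 25.2 FPKM (3.99). GCH1, which starts the synthesis of tetrahydrobiopterin, was at 4.52 and 64.2 FPKM (3.56). MAP2K7, a kinase of the JNK pathway, was at 14.0 and 168 FPKM (3.49), and SCHIP1 at 7.05 and 106 (3.73). SCHIP1 shares its locus with the read-through entry IQCJ-SCHIP1, which was lower (48.8 and 30.2 FPKM), and MAP2K7 with CTD-3193O13.13 (71.2 and 79.8). The split of fragments is uncertain there. The histones HIST1H4H, HIST1H2AL and HIST1H2AE, BRCA1 itself, GPN2, TAX1BP3, RPS15A and GSTT2B completed the 20 highest, at 3.63 to 4.67 log2 units. RPS15A (3.75 and 59.5 FPKM) encodes a ribosomal protein whose locus also holds ARL6IP1 (234 and 612 FPKM). Of the 20, 15 were also at least 2-fold higher in vector cells, against 13.5% of all genes compared, and 10 shared a locus with an entry at 10 FPKM or more.

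Among the same protein-coding genes, the lowest difference was that of TMEM9 (ENSG00000116857, chromosome 1, 201134772 to 201171574), a transmembrane protein of endosomes and lysosomes, at 207 FPKM with DMSO and 4.55 with OTX-015 (-5.23). It was followed by IFI44L, an interferon-stimulated gene, at 74.7 and 1.16 FPKM (-5.13). The membrane protein gene TM4SF18 was at 59.4 and 1.05 FPKM (-4.88). KRT15 (ENSG00000171346, chromosome 17, 41513743 to 41522529), a keratin of basal epithelial cells, was at 422 and 19.5 FPKM (-4.37). CSF1, the growth factor of macrophages, was at 15.6 and 0.423 FPKM (-3.55). RERG, a RAS-like gene known as estrogen-regulated, was at 47.1 and 2.87 FPKM (-3.64), and DCTD, the deoxycytidylate deaminase of thymidine nucleotide synthesis, at 154 and 12.7 (-3.50). MIS18A, needed to load the centromeric histone CENPA, was at 38.3 and 2.47 FPKM (-3.50). TBL1XR1, a subunit of the NCoR and SMRT corepressor complexes, was at 113 and 9.99 FPKM (-3.38). LGALS9, which encodes galectin-9, was at 77.1 and 6.49 FPKM (-3.38), and DMC1, the meiotic recombinase, at 11.6 and 0.291 (-3.29). AKR1C2 (80.9 and 6.18 FPKM, -3.51) stands beside AKR1C1, a near-identical gene of the same locus at 52.6 and 64.0 FPKM, so the split of reads between them is uncertain. XAF1, EPSTI1 and OAS2 of the interferon list, KLHDC7B, NTPCR, CKLF-CMTM1, SSPN and KCTD15 made up the other 8 of the 20 lowest, between -3.96 and -3.31. CKLF-CMTM1 is a read-through entry, at 23.8 and 0.844 FPKM.

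Of these 20, 11 were also at least 2-fold lower in vector cells, against 10.8% of all genes compared, and 7 shared a locus with an entry at 10 FPKM or more. All 40 genes stayed beyond 2-fold in the same direction with pseudocounts of 0.1 and 5 and under the 3 scalings. Among genes at 200 FPKM or more in either library, where low values matter least, the lowest after TMEM9 and KRT15 were OCIAD2 (388 and 47.3 FPKM, -3.01), the antiviral GTPase MX1 (383 and 52.1, -2.86), the AU-rich element binding protein HNRNPD (225 and 31.5, -2.80) and the annexin ANXA3 (218 and 36.7, -2.54). All 6 were at least 2-fold lower in vector cells as well.

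**Figure D2:**
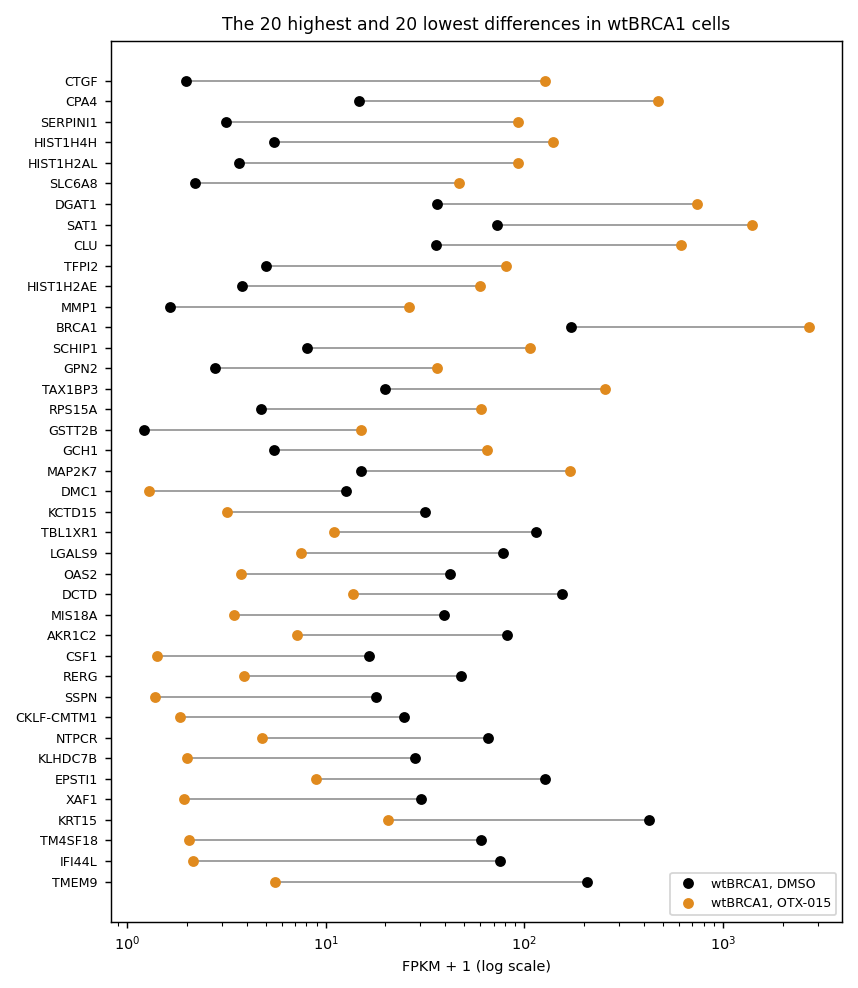
FPKM + 1 (log scale) of the 20 genes with the highest and the 20 with the lowest difference in wtBRCA1 cells, under DMSO (black) and OTX-015 (orange), 1 library each, ordered by the difference from CTGF (6.0 log2 units) to TMEM9 (-5.23). In the upper 20 genes the orange point lies to the right of the black, in the lower 20 to the left.

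Interferon-stimulated genes encode antiviral effectors and sensors, and their promoters are bound by a complex with STAT2 and IRF9 after interferon binds its receptor. Of 44 listed, 42 were kept, 16 of them by 1 library only. A gene kept by the DMSO library alone had to be lower under OTX-015. Over all 44 listed, without the filter, 35 were at least 2-fold lower and 0 higher, with a median of -1.87. Of the 42, 33 were at least 2-fold lower under OTX-015, against 12.8% of all genes, and 0 were 2-fold higher, with a median difference of -2.02 against 0.08 for all genes. The median level of the 42 was 34.6 FPKM with DMSO and 6.5 with OTX-015. The synthetases that make the RNase L activator oligoadenylate were all low: OAS1 was at 62.8 and 6.37 FPKM (-3.11), OAS2 at 41.3 and 2.75 (-3.50) and OAS3 at 44.9 and 4.54 (-3.05). The 3 share their locus with RP1-71H24.1 (63.7 and 5.92 FPKM), which is low with them. The RNA-binding effectors IFIT1 (35.3 and 4.95 FPKM, -2.61) and IFIT3 (18.9 and 2.31, -2.59) and the radical enzyme RSAD2, or viperin (25.3 and 4.09, -2.37), were also lower. TRIM22 was at 10.04 FPKM under DMSO and listed at 0 under OTX-015.

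The sensors of cytosolic RNA were IFIH1, or MDA5 (33.9 and 5.78 FPKM, -2.37), and DDX58, or RIG-I (23.4 and 8.73, -1.32). The feedback protease USP18, which removes ISG15 from proteins, was at 44.7 and 5.79 FPKM (-2.75), and ISG15 at 208 and 83.3 (-1.31). The membrane proteins IFITM1, IFITM2 and IFITM3 differed by -2.52, -2.19 and -1.78. In the transcription factor complex, IRF9 was at 93.2 and 15.2 FPKM (-2.54), while STAT2 was at 17.1 and 23.0 FPKM (0.41). The 2 most abundant genes of the list were among those within 2-fold: IFI27 was at 2575 and 2086 FPKM (-0.30), and IFI6 at 2253 and 1816 (-0.31). Also within 2-fold were MX2 (-0.94), IFIT2 (-0.88), IRF1 (-0.35), GBP2 (0.24), STAT2 and HERC5 (0.51). Over the 17 members alone at their locus, 15 were at least 2-fold lower, and the median was -1.47.

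The list stood higher in wtBRCA1 than in vector cells before treatment. All 42 genes were above their vector value under DMSO, where the vector median was 6.35 FPKM, and 40 of 42 under OTX-015, where it was 1.91. The treated wtBRCA1 median of 6.5 FPKM thus lay beside the vector median under DMSO, and 11 of the 42 genes were, under OTX-015 in wtBRCA1 cells, below their own value in untreated vector cells. Between the vector libraries, 22 of the 42 were 2-fold lower and 1 was higher, against 10.8% and 13.5% of all genes compared, with a median of -1.06. The difference was more negative in wtBRCA1 cells for 33 of 42. A pseudocount shrinks the differences of low genes, and 4 of the 42 were under 1 FPKM in both vector libraries. IFI44L, for example, had 0.431 FPKM in untreated vector cells and was listed at 0 in treated ones. Of the 27 genes 2-fold lower for which a promoter was found, 17 (63.0%) held this response element core, as did 3 of 5 others of the list. The motif stood in 3.65% of all 27305 RefSeq promoters of this length, in 2.73% of those of genes kept, in 1.36% of those of all genes 2-fold higher and in 5.99% of those 2-fold lower, the list included.

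**Figure D3:**
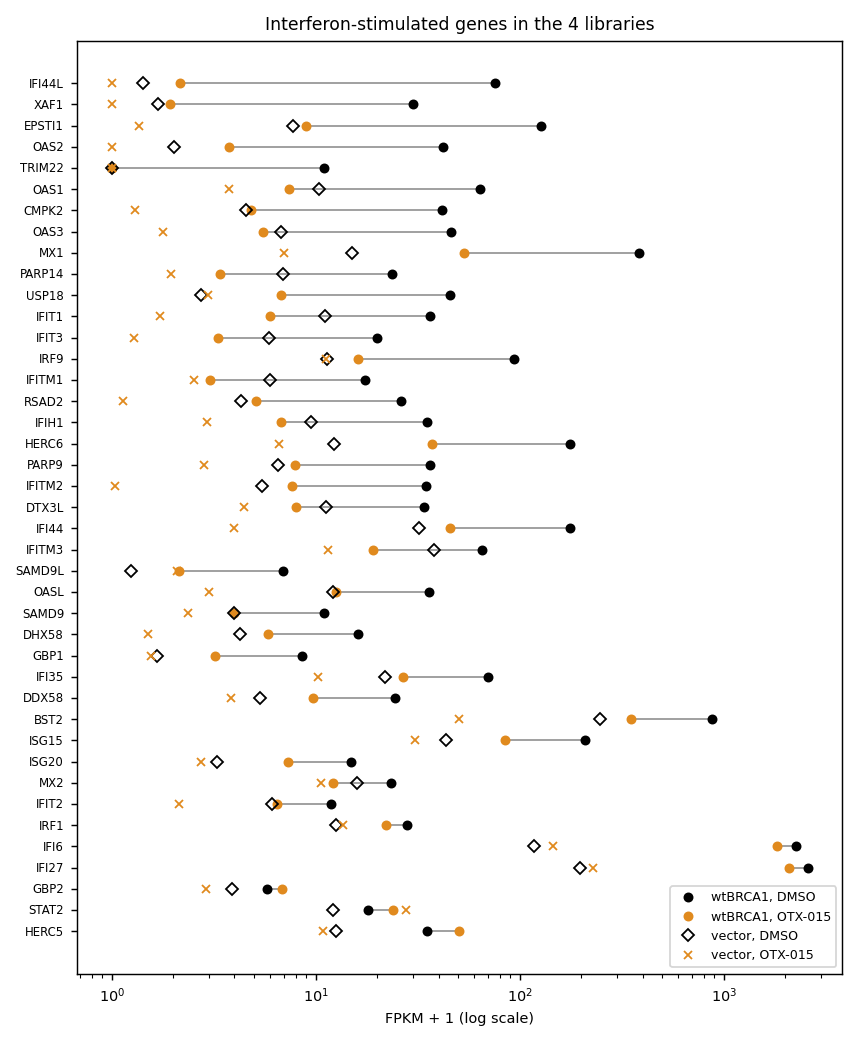
FPKM + 1 (log scale) of 41 interferon-stimulated genes kept, in wtBRCA1 cells under DMSO (black circles) and OTX-015 (orange circles) and in vector cells under DMSO (open diamonds) and OTX-015 (orange crosses), 1 library each, ordered by the wtBRCA1 difference. Grey lines join the wtBRCA1 values, the black circle lies to the right of the open diamond in all 41 genes, and HERC5, STAT2 and GBP2 at the bottom are the 3 genes with an orange circle to the right of the black.

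Other immune genes were mixed. Of 20 genes of MHC class I antigen presentation, all kept, 4 were 2-fold lower and 1 higher, with a median of -0.06. The lower ones were the 3 immunoproteasome subunits PSMB10 (143 and 30.85 FPKM, -2.17), PSMB9 (222 and 73.8, -1.57) and PSMB8 (152 and 61.9, -1.28) and the peptide transporter subunit TAP2 (158 and 66.5, -1.24). The class I heavy chains HLA-B and HLA-C differed by 0.10 and 0.12. Of 22 kept NF-kB targets and cytokines (41 listed), 7 were 2-fold lower (31.8%, against 12.8% of all genes) and 2 higher (9.09%, against 14.5%), with a median of -0.10. Of the 22, 6 were kept by 1 library only, which fixed their direction. Over all 41 listed, without the filter, 11 were 2-fold lower and 2 higher, with a median of -0.26. Besides CSF1, the death ligand TNFSF10, or TRAIL (21.8 and 2.57 FPKM, -2.67), the interleukin 1 receptor antagonist IL1RN (13.5 and 1.29, -2.67), NFKB1 (49.2 and 14.1, -1.73), IL32 (-1.51) and the chemokine CCL5 (16.1 and 5.85, -1.32) were lower. LCN2, which binds bacterial siderophores, was at 2137 and 4490 FPKM (1.07).

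Replication-dependent histone genes are coded in clusters and transcribed in S phase, and their messages normally end in a stem loop without a poly(A) tail. The libraries were poly(A) selected, so the values cover only what that selection kept. Of 63 listed, 23 were kept, 11 of them by the OTX-015 library alone, which had to be higher there. Of the 23, 20 were 2-fold higher, against 14.5% of all genes, and 0 were 2-fold lower, with a median of 2.44. Over all 63 listed the median was 0.78, and a filter of 1 FPKM gave 41 genes with a median of 1.86, of which 30 were higher and 1 lower. Over the 11 alone at their locus 10 were higher. The linker histone HIST1H1C was at 26.9 and 252 FPKM (3.18). HIST1H4H was at 4.51 and 139 FPKM (4.67), HIST1H3H at 8.80 and 101 (3.38) and HIST1H2BD at 25.8 and 142 (2.41). HIST1H2BK, the most abundant at 89.0 FPKM under DMSO, was at 233 FPKM under OTX-015 (1.38). HIST1H2AL was at 2.67 and 92.1 FPKM (4.66), with a neighbour at its locus, Z98744.2, listed at 0 and 24.6. HIST4H4, HIST2H2AC and HIST1H2AM were listed at 0 under DMSO and at 5.41, 6.34 and 6.58 FPKM under OTX-015. The 3 within 2-fold were HIST1H2BN (-0.05), HIST3H2A (0.61) and HIST1H3G (0.62). All core classes and the linker histones were among the higher genes.

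In vector cells 15 of the 23 were 2-fold higher, against 13.5% of all genes compared. Their median there was 1.82, with a median level of 0.752 FPKM with DMSO and 4.86 with OTX-015. The same genes stood at 5.15 and 30.2 FPKM in wtBRCA1 cells, and under OTX-015 all 23 were above their vector value. Of the 20 promoters found for the higher genes, 12 (60.0%) held the octamer, against 1.8% of all promoters and 1.23% of those of genes kept. TATAAA stood in 14 (70.0%), against 12% and 5.15%, and CCAAT in 18 (90.0%), against 35.7% and 37.7%. Of 24 kept replacement histones and histone message processing genes, 5 were 2-fold higher (20.8%, against 14.5% of all genes) and 4 lower (16.7%, against 12.8%). Their median was 0.22, which was -0.39 with equal summed FPKM. The higher ones were H1FX (1.36), H2AFX (1.26), H2AFJ (1.05), H3F3A (1.03) and ZNF473 (1.55), which acts in histone message processing. SLBP, which binds the histone stem loop, was at 41.1 and 81.6 FPKM (0.97). LSM5, a subunit of the LSM ring of RNA decay, was at 118 and 11.4 FPKM (-3.26), and LSM3 and LSM7 differed by -1.29 and -1.14.

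Basal epithelial markers, the keratins and adhesion genes of the layer that contacts the basement membrane, were lower as a list. Of 21 listed, 20 were kept, 7 were 2-fold lower (35.0%, against 12.8% of all genes) and 0 higher, with a median of -0.63. TP63, the transcription factor of the basal layer, was at 9.93 FPKM under DMSO and listed at 0 under OTX-015. MIR205HG, the host transcript of miR-205, was at 43.4 and 1.77 FPKM (-4.0). The hemidesmosome integrin ITGB4 was at 106 and 39.2 FPKM (-1.41), the desmosome genes DSG3 and DSC3 differed by -1.34 and -1.14, and KRT6A by -1.12 (58.1 and 26.3). KRT5 was at 980 and 573 FPKM (-0.77). KRT17 (920 and 1118 FPKM, 0.28) and KRT16 (497 and 963, 0.95) were on the other side, as was the stratifin gene SFN (289 and 552, 0.93). In vector cells the same 20 genes had a median of 0.18, with 6 of them 2-fold higher and 3 lower, against 13.5% and 10.8% of all genes compared. The difference was lower in wtBRCA1 than in vector cells for 18 of 20. Of the 20, 3 were under 1 FPKM in both vector libraries. The level before treatment also differed, as 19 of 20 were above their vector value under DMSO (medians of 82.1 and 17.6 FPKM) and 16 of 20 under OTX-015 (32.8 and 15.9).

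Squamous differentiation genes went both ways, with 3 of 16 kept members higher (18.8%, against 14.5% of all genes), 5 lower (31.2%, against 12.8%) and a median of -0.28. LY6D (79.0 and 7.95 FPKM, -3.16), the calmodulin-like CALML5 (69.3 and 12.7, -2.36) and the kallikrein KLK6 (313 and 109, -1.51) were lower, and SPRR1A was at 6.23 FPKM and then listed at 0. S100A9, a subunit of calprotectin, was at 135 and 857 FPKM (2.66), and the elastase inhibitor PI3 at 353 and 1172 (1.73). Of 13 kept luminal markers, 2 were higher and 2 lower (15.4% each, near the shares of all genes), with a median of 0.04. MUC1 was at 36.5 and 6.40 FPKM (-2.34) and XBP1 at 55.3 and 12 (-2.11), while AGR2 was at 7.74 and 34.4 (2.02) and CLDN4 at 20.3 and 45.4 (1.12).

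After the histones, the redox list held the largest number of 2-fold higher genes. It covers targets of NRF2, the transcription factor that binds antioxidant response elements, and the thioredoxin and glutathione systems. Of 36 kept genes, 15 were 2-fold higher (41.7%, against 14.5% of all genes) and 1 was lower (AKR1C2), with a median of 0.65. NQO1, a quinone reductase, was at 633 and 3067 FPKM (2.28). GCLC, the catalytic subunit of glutathione synthesis, was at 35.7 and 167 FPKM (2.19), while its modifier GCLM was at 165 and 115 (-0.52). GSR, which reduces oxidised glutathione, was at 7.58 and 50.7 FPKM (2.59), GPX4, which removes lipid peroxides, at 161 and 871 (2.43) and GPX1 at 164 and 532 (1.69). PRDX1 was at 1279 and 4595 FPKM (1.84) and TXNRD1 at 121 and 374 (1.62). The ferritin light chain FTL was at 232 and 1103 FPKM (2.24) at the locus of AC026803.1. HMOX1, heme oxygenase 1, was at 3.30 and 14.0 FPKM (1.81). NFE2L2, which encodes NRF2, was at 25.7 and 34.3 FPKM (0.41), and its inhibitor KEAP1 at 55.7 and 29.4 (-0.90). TGACNNNGC stood in 3 of 11 promoters of the higher genes (27.3%), in 3 of 19 of the others of the list (15.8%), in 15.3% of those of genes kept and in 13.6% of all promoters. The metallothioneins, which bind zinc and copper, had differences of unlike sign in the wtBRCA1 and vector lines: MT2A was at 122 and 258 FPKM in wtBRCA1 cells (1.07) and at 87.7 and 24.8 in vector cells (-1.78), and MT1X at 10.2 and 15.8 (0.58) and at 12 and listed at 0 in vector cells.

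Lysosome and autophagy genes were higher in 12 of 35 kept members, against 14.5% of all genes, and 2-fold lower in 0, with a median of 0.84. NEU1, the lysosomal sialidase, was at 10.6 and 76.5 FPKM (2.74) and ULK1, the kinase that starts autophagy, at 4.61 and 29.9 (2.46). The autophagosome proteins GABARAPL1 (10.5 and 53.9 FPKM, 2.25) and MAP1LC3B (10.1 and 44.1, 2.02) and the receptor SQSTM1, or p62 (634 and 2925, 2.20), were higher. At the locus of SQSTM1 the entry C5orf45 was at 2380 and 15872 FPKM. The cathepsin CTSB was at 117 and 309 FPKM (1.39), and the cholesterol carrier NPC2 at 143 and 416 (1.54). TFE3, a transcription factor of these genes, was at 12.6 and 25.9 FPKM (0.99).

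Cholesterol synthesis genes, controlled by SREBF2, were 2-fold higher in 8 of 25 kept members, against 14.5% of all genes, and lower in 0, with a median of 0.65. They were TM7SF2 (23.3 and 233 FPKM, 3.27), INSIG1, which holds SREBP in the endoplasmic reticulum (7.70 and 64.5, 2.91), IDI1 (20.01 and 129, 2.62), SC5D (2.06), FDFT1, or squalene synthase (30.1 and 103, 1.74), SQLE (49.8 and 163, 1.69), HSD17B7 (1.61) and DHCR7 (101 and 243, 1.26). The sterol regulatory element core TCACNCCAC stood in 0 of 6 promoters found for these higher genes and in 1 of 14 of the others of the list. It stood in 1.07% of promoters of genes kept and 1.15% of all promoters. Of 19 kept fatty acid and triglyceride genes, 7 were higher, against 14.5% of all genes, and 0 lower, with a median of 0.48, which was -0.12 with equal summed FPKM. Besides DGAT1 they included FASN, fatty acid synthase (44.7 and 267 FPKM, 2.55), the lipase PNPLA2 (25.1 and 141, 2.44), ACSL1 (1.92) and the desaturases FADS2 (5.13 and 22.1, 1.91) and SCD (15.1 and 37.7, 1.27). In vector cells 13 of the 19 were higher, against 13.5% of all genes compared, with a median of 1.12. Of 16 kept polyamine and creatine genes, 8 were higher, against 14.5% of all genes, and 0 lower, with a median of 0.81. SAT1 and SLC6A8, both among the 20 highest genes above, led them, in a list chosen with earlier results of these data known. The creatine kinase CKB was at 20.7 and 103 FPKM (2.26) and the ornithine decarboxylase ODC1 at 67.9 and 138 (1.01). The spermidine and spermine synthases SRM and SMS differed by -0.29 and -0.53.

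In glycolysis and the hypoxia response, 10 of 33 kept genes were higher, against 14.5% of all genes, and 2 lower, with a median of 0.53, which was -0.09 with equal summed FPKM. ALDOA was at 1601 and 4484 FPKM (1.49), PKM at 1564 and 4488 (1.52), LDHA at 151 and 342 (1.18) and the lactate exporter SLC16A3 at 11.3 and 54.4 (2.18). The hexokinases HK1 and HK2 differed by -0.60 and -1.04. In the unfolded protein response of the endoplasmic reticulum, 6 of 20 genes were higher, against 14.5% of all genes, and 1 lower, with a median of 0.62. The higher ones ran from CRELD2 (1.11) to DNAJC3 (1.41) and included CALR (911 and 2120 FPKM, 1.22) and HYOU1 (148 and 377, 1.34). The lower one was XBP1. ATF4 targets and amino acid genes had 6 of 28 higher (21.4%, against 14.5%), 4 lower (14.3%, against 12.8%) and a median of -0.04. ASNS, asparagine synthetase, was at 19.0 and 139 FPKM (2.81). Cytosolic heat shock genes had 2 of 24 higher (8.33%), 3 lower (12.5%, against 12.8% of all genes) and a median of -0.06. The small chaperone HSPB1 was at 408 and 127 FPKM (-1.68).

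These metabolic medians are sensitive to scaling. With equal summed FPKM the list medians were 0.04 for redox, 0.24 for lysosome, 0.04 for cholesterol, 0.22 for polyamine and 0.02 for the unfolded protein response, where the median of all genes was -0.51. The counts of 2-fold higher members were then 11, 6, 7, 4 and 0 in the same order, and 6 for fatty acid and 4 for glycolysis genes. Relative to the median of all genes, the 20 lists of 37 that lay at least 0.25 log2 units from it kept their side under all 3 scalings and both other pseudocounts.

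**Figure D4:**
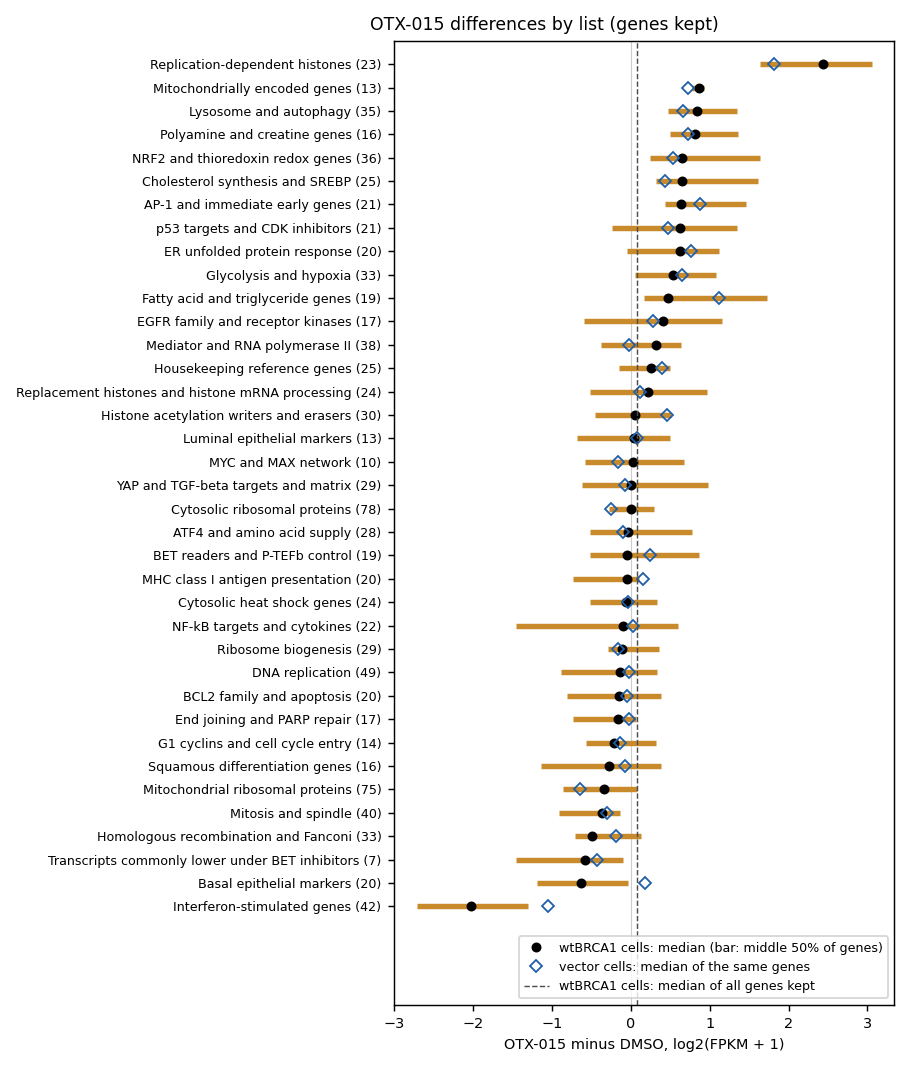
Median difference, OTX-015 minus DMSO on log2(FPKM + 1), of the genes kept from each of 37 lists in wtBRCA1 cells (black points) with the middle 50% of genes (bars), and the median of the same genes in vector cells (open diamonds), 1 library per group and the number of genes kept in brackets. The dashed line is the median of all genes (0.08), and the lists run from the replication-dependent histones (2.44) to the interferon-stimulated genes (-2.02).

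The targets of the drug and the machinery around them were mixed. Of 19 kept BET and P-TEFb control genes, 4 were higher (21.1%, against 14.5% of all genes) and 2 lower (10.5%, against 12.8%), with a median of -0.04. BRD2 was at 159 and 743 FPKM (2.22) and BRD3 at 7.89 and 10.9 (0.42). HEXIM1, which holds P-TEFb inactive, was at 10.7 and 30.8 FPKM (1.45), and MEPCE, which caps the 7SK RNA of the same complex, at 19.8 and 44.4 (1.12). HEXIM2 (16.3 and 4.25 FPKM, -1.72) and LARP7, which binds 7SK (38.8 and 15.3, -1.29), were lower. CDK9, the kinase of P-TEFb, was at 47.9 and 95.2 FPKM (0.97). Of 7 kept transcripts commonly lower under BET inhibitors (18 listed), 3 were 2-fold lower (42.9%, against 12.8% of all genes) and 0 higher, with a median of -0.59. They were BCL2L1, which encodes BCL-XL (51.7 and 12.9 FPKM, -1.92), E2F2 (5.03 and 0.749, -1.78) and MYC (24.8 and 10.8, -1.13). E2F2 was kept by the DMSO library alone and so had to be lower. Over all 18 listed, without the filter, 4 were 2-fold lower and 1 higher, with a median of -0.52. FOSL1 was at 31.1 and 38.2 FPKM (0.29). In the MYC and MAX network TFAP4 was at 9.77 and 0.766 FPKM (-2.61) and MXD4, which opposes MYC, at 10.7 and 38.3 (1.75), and of 10 kept genes 2 were higher and 2 lower. Ribosome biogenesis genes, many of them MYC targets, had 0 of 29 higher, 3 lower (10.3%, against 12.8% of all genes) and a median of -0.12. GAR1 was at 22.7 and 5.99 FPKM (-1.76) and WDR12 at 171 and 51.1 (-1.72). Mediator and RNA polymerase II genes had 4 of 38 higher and 4 lower (10.5% each, below the shares of all genes). Their median was 0.32, which was -0.29 with equal summed FPKM. MED13 was at 17.5 and 2.78 FPKM (-2.29) and POLR2A at 40.6 and 91.9 (1.16). Histone acetylation genes had 1 of 30 higher (3.33%, against 14.5% of all genes) and 4 lower (13.3%, near the 12.8% of all genes). The bromodomain protein BRD7 was at 116 and 15.1 FPKM (-2.86) and the acetyltransferase EP300 at 37.2 and 14.9 (-1.26).

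Of 40 mitotic genes, all kept, 8 were 2-fold lower (20%, against 12.8% of all genes) and 0 higher, 33 were below 0, and the median was -0.37. The 8 were HMMR (81.1 and 27.7 FPKM, -1.52), UBE2C (-1.43), the transcription factor FOXM1 (182 and 70.2, -1.36), TOP2A (154 and 60.9, -1.33), BIRC5, AURKA, PRC1 and TPX2. MKI67, the proliferation marker, was at 21.8 and 18.2 FPKM (-0.24). DNA replication genes had 2 of 49 higher (4.08%, against 14.5%), 9 lower (18.4%, against 12.8%) and a median of -0.14. POLE2 (-1.67), GINS1 (-1.63) and GINS2 (-1.54) were lower, and GINS4 of the same complex was at 18.5 and 113 FPKM (2.55) at a locus with RP11-360L9.7 (358 and 501 FPKM). CDK inhibitors and p53 targets had 7 of 21 higher, against 14.5% of all genes, 1 lower and a median of 0.63. With equal summed FPKM 5 were higher and 4 lower, with a median of 0.04. CDKN1A, which encodes p21, was at 18.1 and 133 FPKM (2.81), RRM2B at 7.17 and 40.6 (2.35) and GADD45B at 9.02 and 32.5 (1.74). MDM2, itself a p53 target, was at 19.8 and 11.3 FPKM (-0.75). HCC1937 is known to lack functional p53. The G1 cyclin list had 0 of 14 higher and 2 lower (14.3%, near the 12.8% of all genes), with CCND1 at 89.6 and 59.2 FPKM (-0.59).

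Homologous recombination and Fanconi genes, the pathway in which BRCA1 acts, had 6 of 33 kept members 2-fold lower (18.2%, against 12.8% of all genes), 1 higher and a median of -0.49. The higher one was BRCA1, the gene these cells had received. The lower ones were DMC1, BRE, a subunit of the BRCA1-A complex also called BABAM2 (48.6 and 6.93 FPKM, -2.65), PALB2, which links BRCA1 to BRCA2 (9.50 and 3.20, -1.32), FANCD2 (23.2 and 8.68, -1.32), NBN (64.9 and 26.9, -1.24) and RAD50 (35.7 and 15.4, -1.17). NBN and RAD50 are subunits of the complex that senses double-strand breaks, and its nuclease MRE11A was at 6.91 and 3.33 FPKM (-0.87). BRCA2 itself had 8.82 and 5.97 FPKM (-0.49). In vector cells 3 of the 33 were lower and 0 higher, against 10.8% and 13.5% of all genes compared, with a median of -0.19. In the end joining and PARP list 3 of 17 were higher and 3 lower (17.6% each, against 14.5% and 12.8% of all genes). PARP1 was at 133 and 280 FPKM (1.07) and PARP2 at 24.2 and 10.3 (-1.15). Among BCL2 family and apoptosis genes 1 of 20 was higher and 4 lower. The caspase 8 inhibitor CFLAR was at 49.2 and 11.6 FPKM (-1.99), BCL2L1 at the values above, BID at 63.1 and 20.4 (-1.58) and BOK at 6.58 and 1.98 (-1.34). MCL1 was at 20.8 and 29.3 FPKM (0.48).

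Immediate early genes of the AP-1 family had 8 of 21 kept members higher, against 14.5% of all genes, 1 lower and a median of 0.63. With equal summed FPKM 3 were higher, with a median of 0.09. Of the 21, 6 were kept by 1 library only, and over all 28 listed, without the filter, 8 were higher and 1 lower. JUN was at 5.29 and 17.4 FPKM (1.55), JUND at 25 and 75 (1.55) and ATF3 at 6.51 and 26.6 (1.88), while KLF6 was at 18.6 and 7.56 (-1.20). YAP and TGF-beta targets and matrix genes had 6 of 29 higher (20.7%, against 14.5% of all genes) and 4 lower (13.8%, near the 12.8% of all genes). Their median was 0.00, which was 0.18 with a filter of 1 FPKM and 0.64 with a filter of 20. CTGF and CYR61 (16.7 and 97.6 FPKM, 2.48), the best known YAP targets, were higher, whereas AJUBA (22 and 10.4, -1.01) and AXL (5.01 and 1.70, -1.15) were lower, and YAP1 itself was at 14.9 and 7.54 (-0.90). GGAATG stood in 10.8% of promoters of all 2-fold higher genes, 11.7% of those lower, 10.9% of those of all genes kept and 14.0% of all promoters. The metalloproteinase inhibitor TIMP1 was at 243 and 1041 FPKM (2.09). Among receptor kinases and their ligands 6 of 17 were higher (35.3%, against 14.5%) and 4 lower (23.5%, against 12.8%). The median was 0.41, which was -0.20 with equal summed FPKM. Of the 17, 5 were kept by 1 library only, and over all 30 listed, without the filter, 6 were higher and 5 lower. FGFR1 was at 10.7 and 88.2 FPKM (2.93), FGFR3 at 21.2 and 74.3 (1.77) and the growth factor VEGFC at 11.9 and 1.56 (-2.33).

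Of 25 housekeeping genes 1 was higher and 1 lower (4.0% each, against 14.5% and 12.8% of all genes). Their median was 0.26, which was -0.35 with equal summed FPKM. ACTB was at 986 and 1355 FPKM and GAPDH at 1486 and 2090. Of 78 cytosolic ribosomal protein genes kept, 4 were higher (5.13%) and 6 lower (7.69%), both below the shares of all genes, with a median of 0.00. In each library 3 of the 86 listed stood at 0, so a listed 0 is not proof of absence. The 13 mitochondrially encoded messages were all higher, by 0.65 to 1.08, and 1 was past 2-fold. Mitochondrial ribosomal proteins, coded in the nucleus, had 3 of 75 higher (4.0%, against 14.5% of all genes), 13 lower (17.3%, against 12.8%) and a median of -0.34. In vector cells their median was -0.65 and 23 were lower, where 10.8% of all genes compared were. With equal summed FPKM the median of the mitochondrially encoded messages was 0.25. Among the highest entries of both libraries were MT-ND6 (6362 and 12584 FPKM), RPS16 (3392 and 4496) and BEST1 (3256 and 4596), whose locus holds the ferritin heavy chain gene FTH1 (841 and 1070). MT-ND6 lies on the minus strand, and no source used here says that Cufflinks was run with strand. Its reads therefore cannot be told from those of the other strand.

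Among genes listed at 0 in 1 library, the highest under OTX-015 were LIMS3L (10.1 FPKM), CLDN6, an embryonic claudin (8.10), and IZUMO4 (6.62), besides the 3 histones given above. The highest under DMSO were RTP4, an interferon-stimulated chaperone of receptors (20.1 FPKM), TGIF2-C20orf24 (15.6), TRIM22, TP63, the mitochondrial ribosomal gene MRPL23 (9.15) and EEF1E1-BLOC1S5 (8.38). TGIF2-C20orf24 and EEF1E1-BLOC1S5 are read-through entries that share their loci with abundant genes (C20orf24 at 210 and 295 FPKM, TXNDC5 at 45.6 and 100). In all, 50 genes kept were listed at 0 under DMSO and 63 under OTX-015. Long noncoding genes were 2-fold higher in 15.1% and lower in 16.2% of 1553 kept. ANO1-AS1 (77.4 and 8.88 FPKM, -2.99) and HOXA-AS3 (12.1 and 1.10, -2.65), antisense to the chloride channel ANO1 and within the HOXA cluster, had the lowest differences of the 315 with a symbol that is no clone name. TONSL-AS1 (1.59 and 16.2 FPKM, 2.73) and ASMTL-AS1 (16.03 and 89.1, 2.40) had the highest of those 315. All of the 6 highest named share a locus with a gene above 10 FPKM, and no source used here says that Cufflinks was run with strand, so their reads cannot be told from those of the other strand.

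The pair of vector libraries shares no sample with the wtBRCA1 pair. Across the 11492 genes the 2 sets of differences correlated with r = 0.52 (Pearson) and rho = 0.55 (Spearman), as a description across genes, which are not replicates, and 70.5% had the same sign. Of the 1671 genes higher in wtBRCA1 cells, 711 (42.5%) were also 2-fold higher in vector cells and 50 were 2-fold lower there. Of the 1474 lower, 586 (39.8%) were 2-fold lower in vector cells too and 59 were higher. Over all 11492 genes, 13.5% were 2-fold higher and 10.8% lower in vector cells. The response of wtBRCA1 cells exceeded that of vector cells by at least 1 log2 unit for 1182 genes (10.3%) and was that much below it for 1312 (11.4%), and with 1 library per group none of these gaps was tested.

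Among genes at 1 FPKM or more in all 4 libraries, GPN2 had the largest gap, at 1.79 and 35.5 FPKM in wtBRCA1 cells and 7.26 and 2.90 in vector cells (3.71 and -1.08 log2 units). TFPI2 was at 4.16 and 3.86 FPKM in vector cells, a difference of -0.09 against 4.02, and BRCA1 had 0.13 against 3.98. CPA4 was at 9.69 and 25.3 FPKM in vector cells (1.30 against 4.99). EIF5A2, a paralogue of the translation factor eIF5A, was at 3.77 and 40.4 FPKM in wtBRCA1 cells and 12.2 and 7.54 in vector cells (3.12 and -0.63). The selenoprotein SELM had 3.36 and -0.28, and NME3 0.67 and -3.02, at a locus shared with MAPK8IP3 (9.06 and 30.6 FPKM in wtBRCA1 cells). AGR2, a secretory protein disulfide isomerase, was at 7.74 and 34.4 FPKM in wtBRCA1 cells and 159 and 50.6 in vector cells, so its levels came closer under OTX-015.

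In the other direction LGALS9 was at 3.49 and 7.40 FPKM in vector cells, a difference of 0.90 against -3.38. TMEM9 was at 112 and 24.1 FPKM there, -2.17 against -5.23. IDH3A, a subunit of the mitochondrial isocitrate dehydrogenase, was at 75.3 and 163 FPKM in wtBRCA1 cells (1.11) and at 36.4 and 1323 in vector cells (5.15). MDC1, a mediator of the DNA damage checkpoint, was at 122 and 71.4 FPKM in wtBRCA1 cells (-0.76) and 8.57 and 91.9 in vector cells (3.28). MDC1 shares its locus with MDC1-AS1 (116 and 52.2 FPKM in wtBRCA1 cells), IDH3A with ACSBG1 (36.2 and 71.5) and LGALS9 with RP11-19P22.8 (10.4 and 17.8). The split of fragments at these loci is uncertain. POLD4, a subunit of DNA polymerase delta, had -0.35 and 2.76, at a locus shared with PPP1CA (162 and 206 FPKM in wtBRCA1 cells), and ZP3 had -0.90 and 2.93. Outside this group, GSR differed by 0.08 and ULK1 by 0.14 in vector cells, against 2.59 and 2.46. These 2 genes do not stand for their lists. In vector cells 14 of the 36 redox genes and 11 of the 35 lysosome genes were 2-fold higher, against 13.5% of all genes compared. In each list 2 were lower there, and the vector medians were 0.53 and 0.66.

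**Figure D5:**
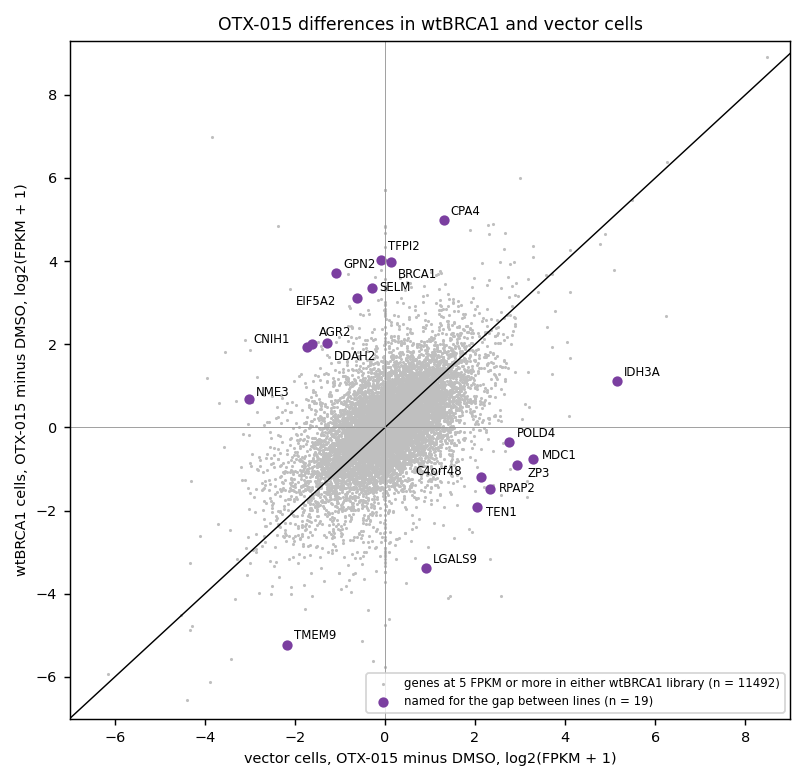
Difference, OTX-015 minus DMSO on log2(FPKM + 1), of 11492 genes in vector cells (x axis) and wtBRCA1 cells (y axis), 1 library per group, with 19 genes named for the largest gaps in purple and the diagonal of equal differences. BRCA1, TFPI2 and SELM lie near 0 on the x axis and above 3 on the y axis, and IDH3A lies farthest to the right of the named genes at 5.15.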

How the data were processed

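RNA was poly(A) selected and made into directional libraries, per the labels' protocols. The deposited FPKM values came from the authors' alignment by TopHat2 to hg38 and quantification by Cufflinks, as listed per the submitters' processing notes, without versions, annotation or scaling. Libraries were matched on gene identifiers (94.2% found in GENCODE 29), and 7506 short structural RNA genes were left out. Differences are log2(FPKM + 1) under OTX-015 minus DMSO, which understates changes of low genes. The files hold no counts, so depth and counting error are unknown. Members and 37 gene lists were chosen with earlier results of these data known. Named were the 20 highest and 20 lowest protein-coding genes above 0 in both libraries, the 6 highest listed at 0 in 1 library each way, the 10 highest in each library, the 10 largest gaps between lines each way, the 6 highest and lowest at 200 FPKM or more and among long noncoding genes, and list members beside their list's counts. Some genes are not reported here, and clone-named and sex-linked marker genes were left out of that rule. Alternatives covered pseudocounts, filters, 3 scalings and protein-coding genes; genes alone at their locus, and a filter over all 4 libraries for the gap, were added after seeing the data. The arithmetic of the difference was checked on values altered by known amounts without added noise, which says nothing of replicate error. Promoters were found for 83.4% of protein-coding genes kept, through symbols and RefSeq synonyms. Python 3.11.15, pandas 2.3.3, numpy 2.4.6 and matplotlib 3.10.9 were used.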

Additional observations from a re-analysis of the deposited data

Results flagged for a closer look

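For 9 genes named by rank the OTX-015 library differed from the DMSO library by at least 2-fold in opposite directions in the 2 lines. Genes named only as list members were not searched in this way, and MT2A (1.07 and -1.78) is one that also did so. With 1 library per group the gaps (wtBRCA1 minus vector difference, in log2 units) were not tested. GPN2, which encodes a GTPase, had a gap of 4.79, CNIH1, a cargo receptor of the secretory pathway, 3.66 (1.93 and -1.73), AGR2 3.65 (2.02 and -1.63) and DDAH2, which degrades methylated arginine, 3.32 (2.02 and -1.30). Below 0 were C4orf48 at -3.31 (-1.18 and 2.12), the RNA polymerase II phosphatase RPAP2 at -3.79 (-1.47 and 2.33), the telomere protein TEN1 at -3.96 (-1.92 and 2.04), the noncoding C5orf56 at -4.45 (-2.52 and 1.93) and the read-through entry TGIF2-C20orf24 at -5.50 (-4.05 and 1.45). DDAH2 shares its locus with CLIC1 (275 and 186 FPKM under DMSO and OTX-015 in wtBRCA1 cells), RPAP2 with GLMN (22.6 and 35.8) and TEN1 with RP11-552F3.13 (13.5 and 37.5). C5orf56 was under 1 FPKM in 2 of the 4 libraries, at 0.0793 in wtBRCA1 cells under OTX-015 and 0.0759 in vector cells under DMSO.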

How the results depend on the processing

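Higher and lower genes numbered 1671 and 1474, and 1182 and 1312 for the gap between lines. They were 1076 and 872 (gap 711 and 790) with a pseudocount of 5, and 650 and 3339 with equal summed FPKM, as that scaling shifts all differences. An FPKM filter of 20 gave 1000 and 755 (573 and 629), a filter of 1 gave 2454 lower genes (gap 2039 and 2215) and no filter 2454 (2515 and 2656). Genes alone at their locus, added after seeing the data, numbered 452 and 377 (323 and 333), with 117 list genes past 2-fold against 306, 15 interferon-stimulated genes lower and 10 histones higher, since fewer genes were tested. Of the 20 list medians at least 0.25 from that of all genes, those for receptor kinases at a filter of 1 (-0.016) and, alone at their locus, for squamous genes (0.090) and G1 cyclins (0.072) changed sign relative to it, and squamous genes reached 0.0 with no filter. Medians nearer to that of all genes changed sign more often. Of the genes named by rank, ALDOA, LCN2, PKM and IDH3A came within 2-fold with equal summed FPKM (0.87, 0.45, 0.90 and 0.49) and quantile normalization. Genes named only as list members were not followed singly, and some of them also came within 2-fold. With equal summed FPKM 0 unfolded protein response genes were 2-fold higher, against 6 in the main setting. No paired analysis was possible because each group has 1 library. No library could be left out for the same reason.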
